A study of Mus musculus with 5 samples.

Results

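Estrogen receptor α (ERα) binding was described around 6 mouse genes of the early growth response to estrogen: Fos, Myc, Cyr61, Cdkn1a, Ccnd1 and Vegfa. Every ERα peak within 100 kb of 1 of these genes was taken, measured from the nearer edge of the gene on the mouse build mm9. These were 56 of the 17240 peaks found in the uterus after estradiol and 5 of the 5184 peaks found after vehicle. The rule that picks the peaks uses gene position alone, and the genes were named with earlier results of these data known.

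The study mapped ERα by chromatin immunoprecipitation and sequencing (ChIP-seq) in whole uterus of wild-type C57BL/6J mice. All animals had lost their ovaries 10 to 14 days before a single intraperitoneal injection, so both groups lacked the main natural source of estrogen. The vehicle group received saline and the estradiol group received 250 ng of estradiol per mouse, and uteri were taken after 1 hour. The same ERα antibody was used in both, and each group is 1 library. The sources used here give neither the age of the mice nor the number of uteri behind each library. Whole uterus mixes epithelium, stroma and muscle, so a peak cannot be assigned to a cell type, and a peak list cannot be set against marker genes of the tissue.

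ERα is a nuclear receptor that binds estradiol and also binds DNA, either directly at estrogen response elements or through other factors such as AP-1 and SP1. In the uterus, estradiol is known for a fast wave of gene induction that comes before fluid uptake and cell division. Fos encodes a subunit of AP-1, and Myc encodes a transcription factor that drives growth and biosynthesis. Cyr61 (Ccn1 in RefSeq) encodes a secreted matrix protein, Ccnd1 encodes cyclin D1 of the early cell cycle, Cdkn1a encodes an inhibitor of cyclin-dependent kinases, and Vegfa encodes a secreted factor for blood vessel growth and permeability. RNA levels were not measured in these files, so what follows concerns binding sites and says nothing of how much each gene was transcribed.

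After estradiol, an ERα peak lay across the start of 2 of the 6 genes, Fos and Vegfa. No other gene had a peak within 1 kb of its start. The start is here the upstream edge of the mm9 interval, although RefSeq lists 2 promoters for Cdkn1a. Both start peaks were short, 145 bp at Fos and 122 bp at Vegfa, below the list median of 242 bp. Of the estradiol list, 88.7% and 94.8% were at least as long. The 250 bases before the RefSeq start of Fos and Vegfa are shown because of these peaks (GRCm38.p6, strand of the gene). The letters of any searched motif are in capitals. The RefSeq start need not be the same base as the edge of the mm9 gene interval, so no motif was placed inside a peak.

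Fos, chromosome 12, plus strand: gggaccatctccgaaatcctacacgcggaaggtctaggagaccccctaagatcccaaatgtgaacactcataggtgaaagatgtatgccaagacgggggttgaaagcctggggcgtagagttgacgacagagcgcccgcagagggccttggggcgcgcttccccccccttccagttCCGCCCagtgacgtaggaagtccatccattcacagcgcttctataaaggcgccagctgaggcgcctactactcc
Vegfa, chromosome 17, minus strand: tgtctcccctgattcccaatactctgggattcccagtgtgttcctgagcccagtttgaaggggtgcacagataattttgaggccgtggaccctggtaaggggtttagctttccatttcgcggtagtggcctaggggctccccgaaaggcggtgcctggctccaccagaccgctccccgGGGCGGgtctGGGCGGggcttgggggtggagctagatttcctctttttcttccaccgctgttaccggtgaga

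The 4 motifs searched on both strands were the full estrogen response element (GGTCANNNTGACC), its half-site (GGTCA), the AP-1 site (TGANTCA) and the SP1 box (GGGCGG). Each full element also holds the half-site on both strands. The Fos sequence held 1 SP1 box, on the opposite strand, from 74 to 69 bases before the start. The Vegfa sequence held 2 SP1 boxes, from 72 to 67 and from 62 to 57 bases before the start. Neither sequence held the other 3 motifs. Over all 32851 RefSeq promoters of this length, 32.7% held an SP1 box, 35.2% a half-site, 6.75% an AP-1 site and 0.0639% a full element. An SP1 box is therefore common among promoters, and these letters are a description of the windows and not of the factor bound there.

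**Figure D1:**
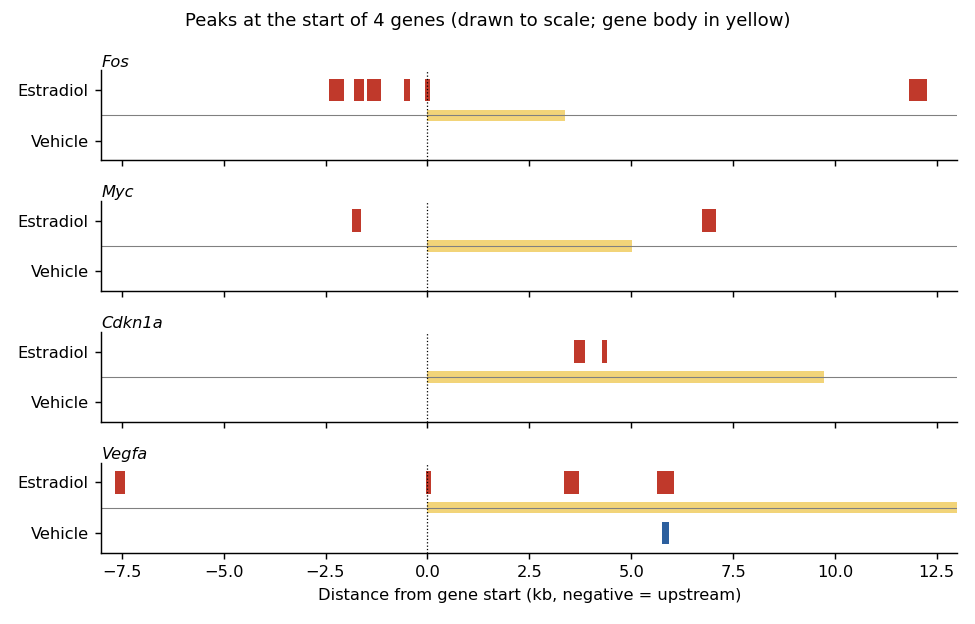
ERα peaks from 8 kb before to 13 kb after the start of Fos, Myc, Cdkn1a and Vegfa, with distance from the gene start in kb on the horizontal axis, estradiol peaks in red above, vehicle peaks in blue below and the gene body in yellow. Estradiol peaks cross the starts of Fos and Vegfa, and the single vehicle peak in view lies in the body of Vegfa.

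Around the 6 genes together, sites were many after estradiol and few after vehicle. The estradiol library had 14 peaks near Fos, 6 near Myc, 5 near Cyr61, 13 near Cdkn1a, 2 near Ccnd1 and 16 near Vegfa. The vehicle library had 2 near Fos, 1 near Cdkn1a, 2 near Vegfa and 0 near Myc, Cyr61 and Ccnd1. All 6 genes had more estradiol than vehicle peaks, but so did 80.5% of the 200 kb tiles of the genome that held any peak, since the estradiol list is the longer one. Near the 6 genes the estradiol to vehicle ratio was 11.2, against 3.33 for the whole lists. Leaving out 1 gene at a time gave ratios from 10.0 (without Myc) to 14.0 (without Fos). The ratio was 17.5 (35 to 2 peaks) within 50 kb, and 4.20 (21 to 5) with only the 5184 longest estradiol peaks kept, which makes the ratio of the lists 1.00. Each condition is 1 library of unknown read depth, so these are differences between 2 libraries with no replicate and no test.

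The 6 genes differed widely in their number of estradiol peaks. Fos, Cdkn1a and Vegfa each had 13 or more, a number reached by 0.879% of all 200 kb tiles. Myc and Cyr61 had 6 and 5, and 5 or more peaks were found in 8.87% of tiles. Ccnd1 had 2, and 2 or more were found in 26.5% of tiles. At least 1 vehicle peak lay near 3 of the 6 genes, against 24.0% of tiles. The median tile held 0 peaks in either library, and the fullest held 33 estradiol and 15 vehicle peaks. Tiles include gene deserts and unsequenced stretches, and the windows around the genes run from 203 kb (Fos and Cyr61) to 215 kb (Vegfa). Tiles are therefore a rough background, and gene windows of the same kind for other genes were not analysed here.

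**Figure D2:**
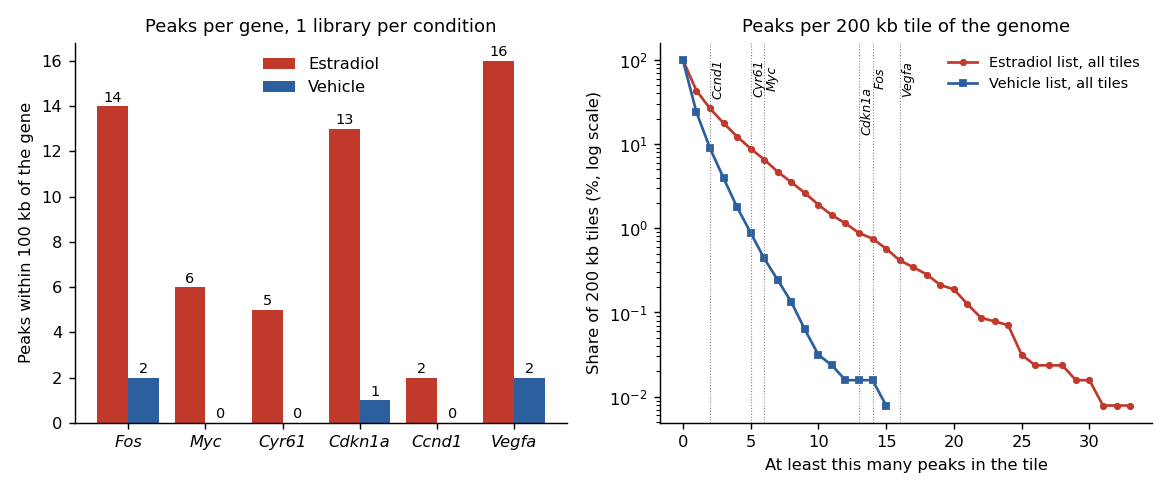
Left, number of ERα peaks within 100 kb of each gene in the estradiol (red) and vehicle (blue) library, 1 library each. Right, share of all 200 kb tiles (percent, log scale) that hold at least the number of peaks on the horizontal axis, with dotted lines at the estradiol count of each gene; Vegfa with 16 peaks stands farthest right and Ccnd1 with 2 farthest left.

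Of the 56 estradiol peaks, 52 had no vehicle peak on them. That is 92.9% (exact binomial 95% interval 82.7 to 98.0, counting error only), against 78.8% of the whole estradiol list. The share was 92.0% to 95.0% when any 1 of the genes was left out. Peaks of 1 locus lie close together and are not independent, so the interval is too narrow. Of the 5 peaks found after vehicle, 4 had an estradiol peak on them, or 80.0% (28.4 to 99.5), against 71.3% of the whole vehicle list, where 1 shared bp was enough. The interval, from only 5 peaks, holds the share of the list. When 50% of both peaks had to overlap, 1 of the 5 did (20.0%), against 56.4% of the whole list. The exact interval for 1 of 5 runs from 0.505% to 71.6% and holds that share as well. All 4 shared vehicle peaks lay wholly inside a longer estradiol peak, so the 50% rule depends here on the length of the estradiol peak.

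**Figure D3:**
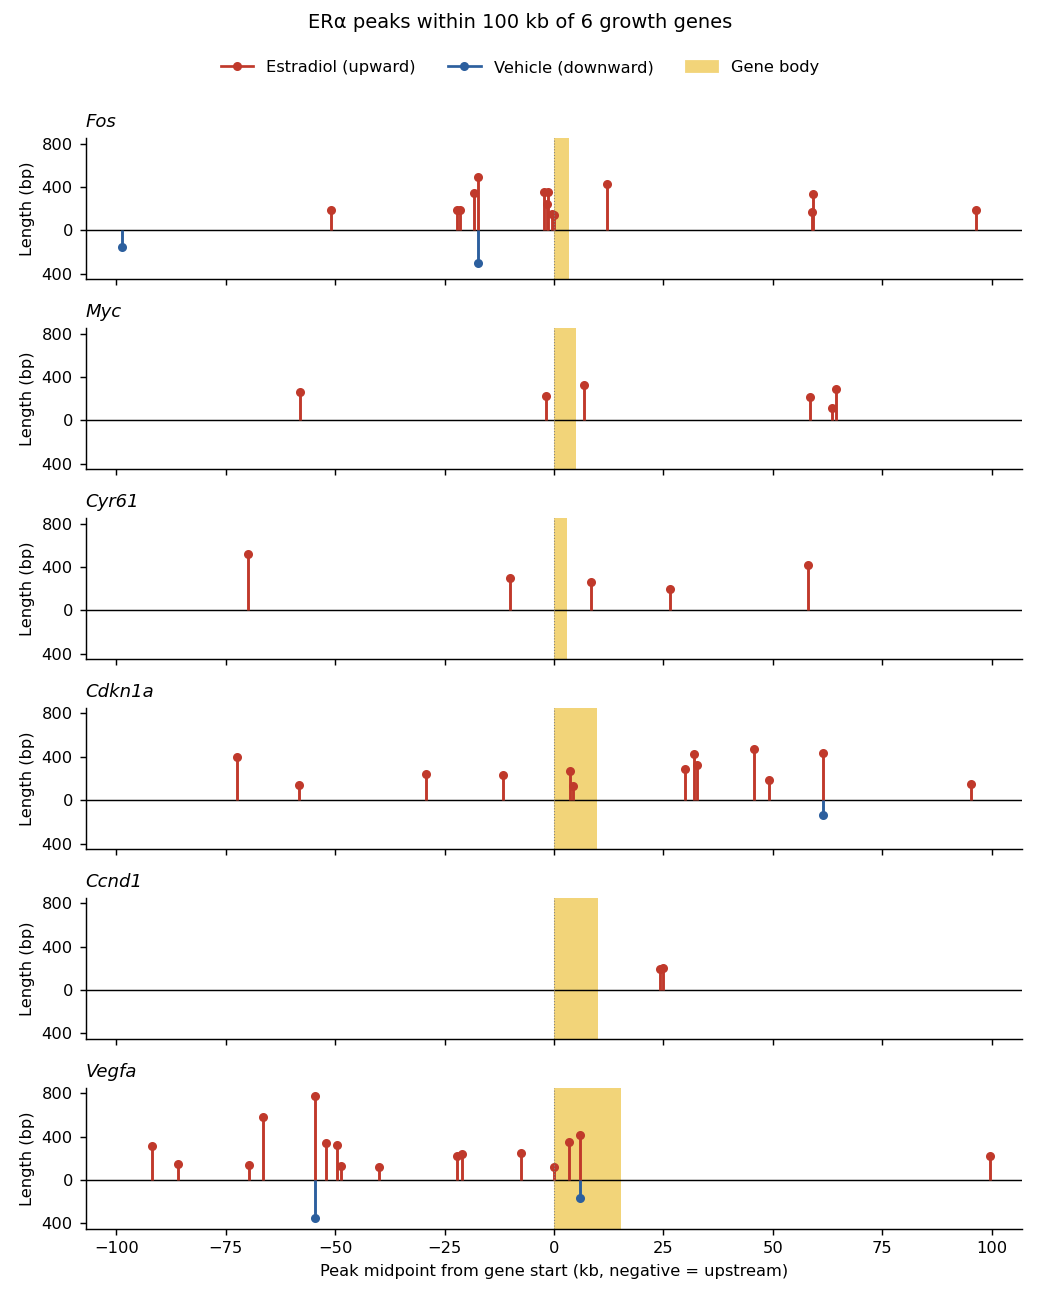
Position and length of every ERα peak within 100 kb of the 6 genes, with the peak midpoint in kb from the gene start on the horizontal axis (negative is upstream) and peak length in bp as the height of each line, upward in red for estradiol and downward in blue for vehicle. The 3 genes with a vehicle peak are Fos, Cdkn1a and Vegfa, and 4 of the 5 vehicle lines stand under an estradiol line.

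Fos (chr12:86814851-86818219, plus strand) had the most listed peaks within 5 kb of the gene. A peak of 145 bp at chr12:86814781-86814925 ran across the start, from 70 bases before it to 74 after it. Upstream of it stood 4 more peaks with midpoints 0.502, 1.31, 1.67 and 2.23 kb before the start, of 153, 358, 246 and 357 bp (chr12:86814273-86814425, chr12:86813360-86813717, chr12:86813059-86813304 and chr12:86812445-86812801). None of these 5 had a vehicle peak on it, and the nearest vehicle peak lay 14.7 to 17.1 kb away. The shortest distance between neighbours in this group was 55 bp, so the 5 peaks need not be 5 separate sites. Over the whole window, joining estradiol peaks closer than 500 bp brought the Fos count from 14 to 9.

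The longest Fos peak was a site already present after vehicle. It measured 493 bp after estradiol (chr12:86797328-86797820) and lay 17.3 kb before the start. The vehicle peak inside it measured 305 bp (chr12:86797414-86797718), and all of its bases were within the estradiol peak. Estradiol-only peaks of 347, 190 and 192 bp stood beside this site, 0.561, 3.94 and 4.73 kb from the vehicle peak. The other vehicle peak near Fos, of 153 bp at chr12:86716065-86716217, lay 98.7 kb before the start and had no estradiol peak within 42.9 kb. The 5 Fos peaks not yet given were 186 bp at 50.9 kb upstream and 429, 167, 332 and 185 bp at 12.0, 58.8, 59.2 and 96.4 kb past the start. RefSeq (GRCm38.p6) places Tmed10 next to Fos on the upstream side and Jdp2 on the downstream side, and only Tmed10 lies within 100 kb. The data do not say which gene a peak serves.

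Vegfa (chr17:46153942-46169327, minus strand) had the most estradiol peaks, 12 upstream, 3 in the gene body and 1 downstream. A peak of 122 bp at chr17:46169245-46169366 crossed the gene start, from 39 bases before it to 82 after it. It was among the shorter peaks, since 94.8% of the estradiol list was at least as long. Within the gene, a peak of 352 bp stood 3.54 kb past the start (chr17:46165615-46165966) with no vehicle peak on it. A peak of 417 bp at 5.84 kb past the start (chr17:46163281-46163697) covered all of a vehicle peak of 164 bp (chr17:46163409-46163572). This was the only vehicle peak within 5 kb of any of the 6 genes. Exons and introns were not assigned, because no mm9 annotation was used.

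The longest peak near any of the genes was upstream of Vegfa. It measured 771 bp after estradiol (chr17:46223473-46224243), 54.5 kb before the start, and only 1.01% of the estradiol list was at least as long. The vehicle peak inside it measured 348 bp (chr17:46223812-46224159). Around it, 7 estradiol peaks formed a run of 29.8 kb (chr17:46209323-46239140) with no gap of 12.5 kb or more, and this was the only vehicle peak in the run. The run also held a peak of 583 bp at 66.5 kb upstream, the second longest of all 56, whose nearest vehicle peak lay 11.4 kb away. Its other members were 343, 323, 132, 123 and 138 bp at 52.0, 49.6, 48.7, 40.1 and 69.7 kb upstream. The rest of the upstream peaks were 249, 237 and 224 bp at 7.54, 21.1 and 22.2 kb and 150 and 312 bp at 85.8 and 91.8 kb. The single peak beyond the 3′ end was 226 bp long and 84.1 kb from the gene. The next coding genes in RefSeq are Mrps18a upstream and 1600014C23Rik downstream. Those within 100 kb on that build are Mrps18a and Rsph9, and the peaks were counted for Vegfa by distance alone.

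Cdkn1a (chr17:29227931-29237667, plus strand) was bound inside the gene and over a long downstream stretch. Peaks of 271 bp (chr17:29231535-29231805) and 127 bp (chr17:29232213-29232339) lay 3.74 and 4.34 kb past the start given by the mm9 interval, and neither had a vehicle peak on it. RefSeq lists 2 promoters for this gene, so the distance to a start depends on which is meant. Downstream, 6 peaks formed a run of 31.9 kb (chr17:29257756-29289627), of 283, 430, 328, 468, 184 and 436 bp in genome order. The run met the limit of 12.5 kb between neighbours only narrowly, since its widest gap, from chr17:29260812 to chr17:29273274, is just under it. The longest peak near Cdkn1a was the one of 468 bp at chr17:29273274-29273741, 45.6 kb past the start. The last peak of the run, 436 bp at chr17:29289192-29289627, covered all of the only vehicle peak near Cdkn1a, 141 bp at chr17:29289348-29289488. The remaining peaks were 395, 136, 240 and 235 bp at 72.5, 58.3, 29.3 and 11.6 kb upstream and 147 bp at 95.3 kb past the start. RefSeq gives Srsf3 as the next coding gene upstream and Rab44 as the next downstream, and 4 coding genes lie within 100 kb on that build (Stk38, Srsf3, Rab44 and Cpne5).

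Myc (chr15:61816893-61821916, plus strand) had an estradiol peak on either side of the gene and none in it. The upstream peak was 221 bp at chr15:61815044-61815264, 1.74 kb before the start, and the downstream peak was 324 bp at chr15:61823642-61823965, 1.73 kb past the 3′ end. The latter was the longest of the 6 near Myc. A further peak of 257 bp lay 57.9 kb upstream, and peaks of 216, 118 and 287 bp lay 58.5, 63.6 and 64.3 kb past the start. No coding gene other than Myc lies within 100 kb in RefSeq. The nearest vehicle peak was 305 kb from the gene, the largest such distance of the 6.

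Cyr61 (chr3:145309885-145312950, minus strand) had 5 estradiol peaks, and all of them stood more than 5 kb from the gene. The nearest was 264 bp at chr3:145304305-145304568, 5.32 kb past the 3′ end, and it was also the nearest to the gene start, with its midpoint 8.51 kb from it. The next was 294 bp at chr3:145322798-145323091, 9.99 kb upstream. The longest was 518 bp at chr3:145382646-145383163, 70.0 kb upstream, and 4.95% of the estradiol list was at least as long. Peaks of 199 and 413 bp lay 26.6 and 57.9 kb past the start. The gaps between neighbouring peaks ran from 17.8 to 59.6 kb, so these sites were well apart, unlike those at Fos. The nearest vehicle peak was 125 kb from the gene. In RefSeq, Col24a1 and Znhit6 are the other coding genes within 100 kb.

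Ccnd1 (chr7:152115835-152125774, minus strand) had the least binding of the 6. Its 2 estradiol peaks stood side by side past the 3′ end, 202 bp at chr7:152100811-152101012 and 196 bp at chr7:152101357-152101552, with 344 bp between them. Their midpoints lay 24.9 and 24.3 kb past the start. Both were shorter than the median of the estradiol list, 242 bp, so neither is kept when only the longer part of the list is used. No estradiol peak lay within 1 kb of the start or in the gene body. The next estradiol peak and the nearest vehicle peak were both 222 kb from the gene. The 2 peaks near Ccnd1 lie on the side of LTO1, Fgf15, Fgf4 and Fgf3, the other coding genes within 100 kb in RefSeq, and were counted for Ccnd1 by distance alone.

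By peak count summed over the 6 genes, sites close to the genes were denser than sites farther off, though not at every gene. From the gene body out to 5 kb there were 12 estradiol peaks at 4 of the genes, or 11.3 per 100 kb. Of these, 5 were at Fos, 3 at Vegfa, 2 at Myc and 2 at Cdkn1a, with 0 at Cyr61 and Ccnd1. At Fos and Cdkn1a some of them lay under 500 bp from a neighbour, and the bands were not recounted with such peaks joined. From 5 to 25 kb there were 17 peaks (7.08 per 100 kb), from 25 to 50 kb 6 peaks (2.00 per 100 kb), and from 50 to 100 kb 21 peaks (3.50 per 100 kb). The whole estradiol list had 0.676 per 100 kb of the span it covers. That span includes gene deserts, and the same bands around other genes were not analysed here. Without Fos the density out to 5 kb was 7.51 per 100 kb, and leaving out any other gene gave 10.9 to 13.9. The band from 5 to 25 kb, with 5 Fos peaks, was not recounted without Fos, so 7.51 has no matching value there. The vehicle peaks were 1, 1, 0 and 3 in the same 4 bands. The order of the last pair of bands rests on few genes, since Vegfa held 7 of the 21 peaks from 50 to 100 kb and Cdkn1a and Vegfa held all 6 from 25 to 50 kb.

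**Figure D4:**
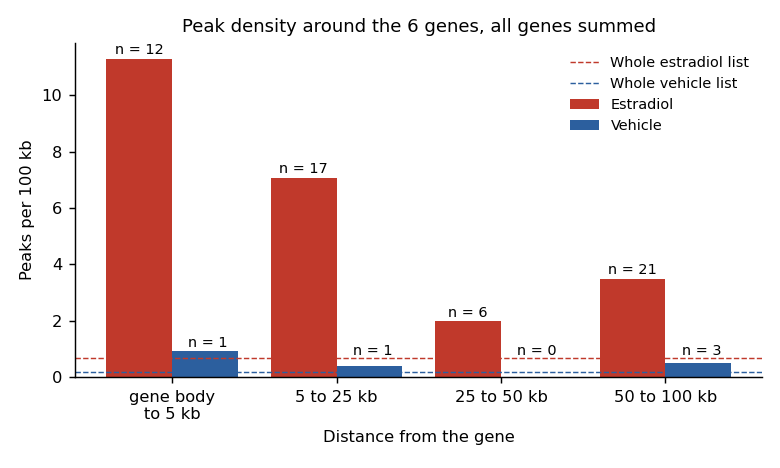
ERα peaks per 100 kb in 4 bands of distance from the gene, summed over the 6 genes, for the estradiol (red) and vehicle (blue) library, with the number of peaks above each bar and dashed lines for the density of each whole list. The estradiol bar is highest, at 11.3 per 100 kb, from the gene body to 5 kb.

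Relative to the direction of transcription, 29 of the 56 estradiol peaks were upstream, 6 overlapped the gene body and 21 were downstream. The upstream share was 51.8% (exact binomial 95% interval 38.0 to 65.3, counting error only). A share over the whole list could not be given, because no mm9 annotation was used. The split differed by gene, with 12 of 16 upstream at Vegfa, 9 of 14 at Fos, 4 of 13 at Cdkn1a, 2 of 6 at Myc, 2 of 5 at Cyr61 and 0 of 2 at Ccnd1. Runs of at least 5 estradiol peaks with gaps under 12.5 kb were found at Fos, Cdkn1a and Vegfa. The Fos run spanned 14.7 kb (chr12:86812445-86827102) and held the 5 peaks at the start and the peak of 429 bp past the gene. The 3 runs held 19 of the 56 peaks (33.9%), against 14.6% of the whole estradiol list. The limit of 12.5 kb was not varied. The Cdkn1a run, with 6 of these peaks, met it only narrowly, so the share near the genes depends on that choice.

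Peak length near the genes was like that of the list. The 56 estradiol peaks had a median of 248 bp (quartiles 186 and 348 bp, range 118 to 771 bp), and the whole list had a median of 242 bp (183 and 317 bp). Peaks within 5 kb of a gene had a median of 258 bp (n = 12) and those farther away 244 bp (n = 44). The lists hold no height or enrichment, so length is the only size of a peak that can be given.

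The 4 shared sites were among the longest. Their estradiol lengths were 417, 436, 493 and 771 bp, and the 52 estradiol-only peaks had a median of 238 bp, with a longest of 583 bp. In the whole list shared peaks were longer as well, with a median of 306 bp against 227 bp. At each of the 4 sites the estradiol peak was longer than the vehicle peak, by 1.62 times at Fos, 3.09 times at Cdkn1a, and 2.54 times in the body and 2.22 times upstream of Vegfa. The estradiol peak was longer at 74.8% of the 3584 sites of the series where 1 peak met 1 peak, with a median ratio of 1.29. For 4 of 4 sites the exact binomial interval runs from 39.8% to 100%, which holds that share. It counts the sites as independent, though 2 are at Vegfa and all come from 1 library per condition, so it is too narrow.

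**Figure D5:**
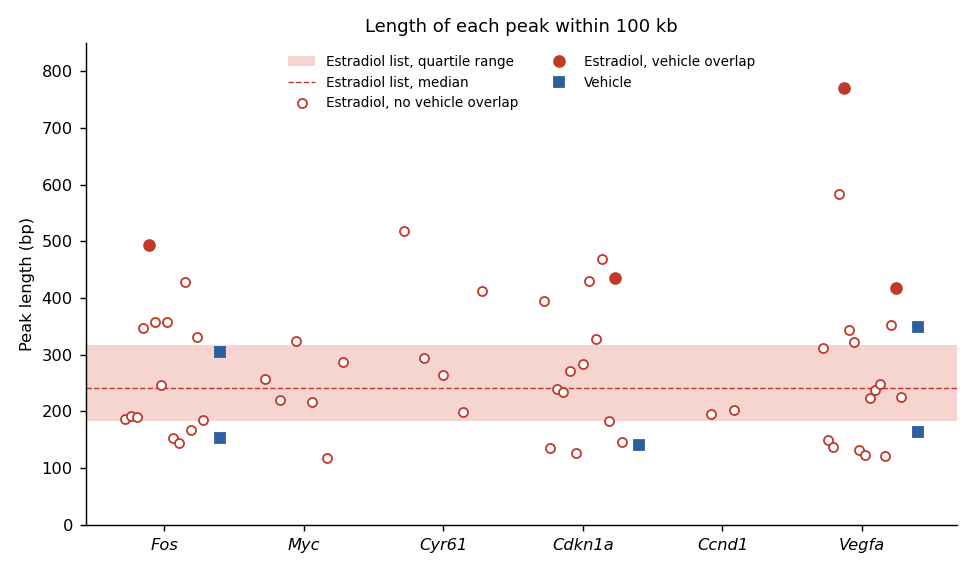
Length in bp of each ERα peak near the 6 genes: estradiol peaks with (filled red) and without (open red) a vehicle overlap, ordered by position, and vehicle peaks (blue squares), with the median and quartile range of the whole estradiol list behind them. The 4 filled points lie between 417 and 771 bp, above the quartile range.

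The 100 kb limit fell in gaps between peaks. The outermost peaks inside it were 91.6 kb (Vegfa, estradiol, 312 bp), 92.9 kb (Fos, estradiol, 185 bp) and 98.6 kb (Fos, vehicle, 153 bp) from the gene. The first peaks outside it were estradiol peaks at 109, 115 and 117 kb from Cdkn1a. The vehicle peak at 98.6 kb was the only one of the 5 vehicle peaks without an estradiol overlap. A slightly smaller window would leave it out, so the vehicle counts depend on the limit.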

How the data were processed

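The 2 ERα peak lists were deposited by the authors, 1 per library, with 4 columns (chromosome, start, end, name). Coordinates are on mm9, per the file headers. The submitters' processing notes name Partek, with no role. For the aligner, the peak caller and the use of input the answer is not given in the sources used here, and read depth is unknown. Libraries of RNA polymerase II and of input chromatin were not analysed here. Starts were counted from 1. Gene intervals on mm9 came with the choice of genes. Gene direction and promoters came from the RefSeq promoter table (GRCm38.p6), which holds 4 of the 6 genes; neighbouring genes came from the RefSeq gene table of that build, which holds all 6, and the directions of Myc and Ccnd1 are general knowledge. No coordinates were moved between builds.

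Peaks overlapped when they shared at least 1 bp. Tiles of 200 kb were counted by peak midpoint between the first and last peak of a chromosome. The window and overlap counters were checked on planted positions. Python 3.11.15, pandas 2.3.3 and scipy 1.17.1 were used. Named peaks were the nearest to the start, the longest, those within 5 kb and all vehicle peaks. A list of further early response genes could not be located without an mm9 gene table and was not counted. The genes and measures were chosen with earlier results of these data known.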

Additional observations from a re-analysis of the deposited data

How the results depend on the processing

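No paired analysis was possible because each condition has 1 library, and for the same reason none could be left out. Estradiol peaks near the genes numbered 35 with a window of 50 kb, 29 with 25 kb, 29 when only peaks at least as long as their list's median were kept, and 21 when the estradiol list was reduced to the vehicle number by length. Vehicle peaks numbered 2, 2 and 2 under the first 3 of these and 8 with a window of 200 kb. More estradiol than vehicle peaks were found at 6 genes with windows of 25, 50 and 200 kb, with joined peaks and from the gene start, and at 5 under both length limits, where Ccnd1 had 0 of each. The estradiol share without a vehicle overlap was 98.2% when 50% of both peaks had to overlap (83.0% of the whole list) and 81.0% in the reduced list (62.8% of that list). Of the vehicle peaks, 20.0% (1 of 5) met an estradiol peak by the 50% rule (56.4% of the whole list), where 4 of 5 lay wholly inside a longer estradiol peak, and 100% (2 of 2) did with a window of 50 kb. The median estradiol length stayed between 246 and 274 bp. Fewer peaks under narrower windows and shorter lists follow by construction. Unknown read depth limits every comparison of the 2 libraries.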

Other observations

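Between 100 and 200 kb from the genes, estradiol peaks numbered 7 at Fos, 7 at Cdkn1a, 6 at Vegfa, 5 at Cyr61, 3 at Myc and 0 at Ccnd1. Vehicle peaks in the same ring numbered 2 at Cyr61, 1 at Cdkn1a and 0 at Fos, Myc, Ccnd1 and Vegfa. Within 200 kb in all, Ccnd1 had 2 estradiol peaks, the fewest of the 6 genes, and Vegfa had 22, the most, beside 21 at Fos and 20 at Cdkn1a.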
